A study of Mus musculus with 6 samples.

Results

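The comparison described here set wild-type mouse embryonic fibroblasts (MEFs) at passage 1 (P1) treated with α-amyrin against P1 MEFs treated with β-amyrin, each compound at 20 µM for 3 days. It rests on 2 of the 6 libraries of the study, 1 library a side, across the 16962 genes that passed a low-count filter of the 55487 genes in the deposited count table. MEFs are primary cells grown out of mouse embryos, and the passage number counts how often they were replated. The other 4 libraries were P6 α-amyrin, P6 β-amyrin, P6 vehicle and P1 vehicle, from the same genotype. P1 cultures carried the label non-senescent and P6 cultures the label senescent, the state in which cultured cells stop dividing after repeated replating. Total counts were 28752332 in P1 α-amyrin, 25077506 in P1 β-amyrin and 26136738 in P1 vehicle, and between 18798418 and 25440191 in the P6 libraries. No condition had a replicate, and the labels do not tell whether libraries derived from different embryos or dishes. The P1 pair is therefore described by size of difference, with no p-value.

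The amyrins are plant triterpene alcohols with 1 formula and a skeleton of fused rings, of the ursane type in α-amyrin and of the oleanane type in β-amyrin; a methyl group sits at a different place on the last ring, ring E. MEF cultures are heterogeneous, since tissue macrophages of the embryo can be carried along with the fibroblasts. Macrophages depend on signalling through the CSF1 receptor and on the transcription factor PU.1, and are known by complement C1q, Fc receptors and lysozyme. Fibroblasts and macrophages alike carry out the interferon response, in which a complex with STAT2 and IRF9 binds a DNA element in front of antiviral genes.

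At P1 the α-amyrin and β-amyrin libraries differed mostly in one direction. Levels are given as CPM, the gene's share of the library's TMM-scaled total, and differences as the log2 ratio of α-amyrin over β-amyrin with a prior count of 2. A gene was past 2-fold when its ratio reached 2-fold and either library of the pair reached 5 CPM, a level that 11615 genes had. By this rule 124 genes were higher in the α-amyrin library (1.07%) and 4 were lower (0.0344%), 128 in all (1.10%). The middle of the distribution was narrow, with quartiles at -0.11 and 0.10 and the 1st and 99th percentiles at -0.51 and 1.02. None of the 128 genes reached 100 CPM in its higher library of the pair, and 62 lay between 5 and 10 CPM. Just inside the threshold were Abi3 at 1.00, Ifi204 at 1.01 and Gm10819 at 1.01, and just outside it Apoe at 0.99, Lgals3bp at 0.99 and Uba7 at 0.96. Of the 128 genes, 121 were protein coding. Of the 124, 23 were on a list of 30 macrophage identity genes and 12 on a list of 60 interferon-stimulated genes.

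**Figure D1:**
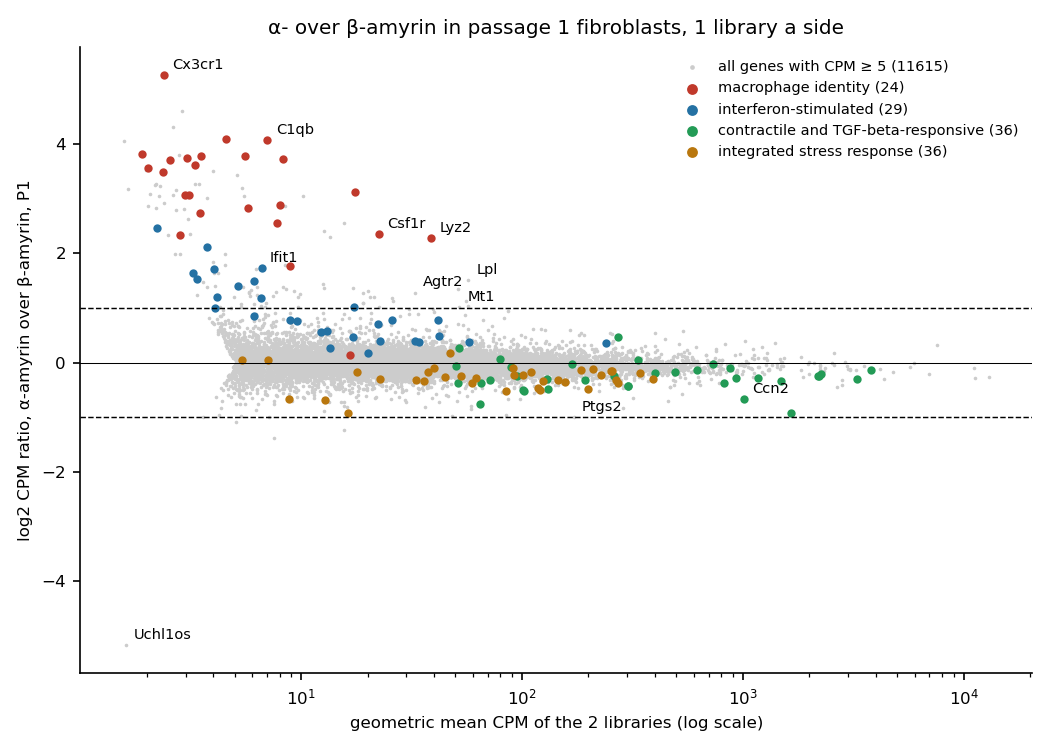
Each point is 1 of 11615 genes at P1, with its geometric mean CPM over the α-amyrin and β-amyrin libraries on a log x axis and its log2 ratio of α-amyrin over β-amyrin on the y axis; dashed lines mark 2-fold. Macrophage identity genes (red) lie above 2-fold apart from Mertk at 0.14, interferon-stimulated genes (blue) lie above 0, contractile and TGF-beta-responsive genes (green) and integrated stress response genes (orange) lie mostly below 0, and Uchl1os stands alone at -5.16.

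Both leading groups were looked at for letters known from their control regions, because their members were higher together. The windows ran from 250 bases before to 50 after each annotated start (RefSeq, GRCm38.p6, the assembly that mm10 names), and both strands were searched. The core of the interferon-stimulated response element, GAAA repeated after any 2 bases, was present in windows of 1079 of 27025 RefSeq genes (3.99%), of 26 of the 44 matched genes of the interferon list (59.1%) and of 3 of the 24 matched genes of the macrophage list (12.5%). GAGGAAGT, a PU.1 site, was present for 997 of the 27025 genes (3.69%), for 1 of the 44 interferon genes (2.27%) and for 3 of the 24 macrophage genes (12.5%). Among the 86 matched genes of the 124 higher in the α-amyrin library, 11 held the first motif and 11 the second (12.8% each). A match describes letters in the window and is not a bound site. The windows below belong to an interferon-induced translation inhibitor (Ifit1), a ubiquitin-like antiviral modifier (Isg15), a chain of complement C1q (C1qc) and a leukocyte tetraspanin (Cd53), chosen because they hold the motif of their group; each is given 5′ to 3′ on the gene's strand, with the motif, on either strand, in capitals. Ifit1 lies at chr19:34640639-34640938 (plus strand), Isg15 at chr4:156200769-156201068 (minus), C1qc at chr4:136892865-136893164 (minus) and Cd53 at chr3:106790100-106790399 (minus). In Isg15 3 overlapping matches form a single block.
Ifit1: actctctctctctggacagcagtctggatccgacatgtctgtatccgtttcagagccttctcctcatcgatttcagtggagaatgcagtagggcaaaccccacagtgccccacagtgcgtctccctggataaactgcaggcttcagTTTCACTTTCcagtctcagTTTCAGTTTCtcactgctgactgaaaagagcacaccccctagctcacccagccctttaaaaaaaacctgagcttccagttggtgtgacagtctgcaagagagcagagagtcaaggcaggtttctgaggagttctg
Isg15: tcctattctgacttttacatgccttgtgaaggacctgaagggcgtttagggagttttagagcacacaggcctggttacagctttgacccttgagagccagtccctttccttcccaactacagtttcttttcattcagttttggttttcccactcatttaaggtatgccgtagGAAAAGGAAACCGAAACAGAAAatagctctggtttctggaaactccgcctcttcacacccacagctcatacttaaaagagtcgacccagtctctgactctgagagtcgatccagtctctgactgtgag
C1qc: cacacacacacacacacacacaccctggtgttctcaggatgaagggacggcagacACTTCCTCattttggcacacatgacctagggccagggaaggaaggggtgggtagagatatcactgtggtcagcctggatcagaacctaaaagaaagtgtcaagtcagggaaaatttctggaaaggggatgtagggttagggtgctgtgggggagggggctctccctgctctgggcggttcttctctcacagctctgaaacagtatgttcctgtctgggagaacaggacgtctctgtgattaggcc
Cd53: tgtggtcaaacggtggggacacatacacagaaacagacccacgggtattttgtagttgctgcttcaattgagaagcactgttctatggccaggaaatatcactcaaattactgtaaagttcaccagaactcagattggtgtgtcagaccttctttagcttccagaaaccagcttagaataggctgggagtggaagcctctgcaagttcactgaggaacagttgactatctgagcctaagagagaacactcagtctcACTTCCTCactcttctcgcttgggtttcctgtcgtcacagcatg

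Macrophage genes showed the widest gap between the isomers at P1. All 29 tested members of the macrophage identity list had a ratio above 0, with a median of 3.12, against 8598 above 0 and a median of 0.00 among the 16962 genes tested. Of the 24 members with at least 5 CPM in the pair, 23 were past 2-fold, beside the background of 1.07%. The same count holds among the 24 members with at least 5 CPM in the P1 vehicle library, a minimum that uses neither library of the pair. Over all 11439 genes with that vehicle level, 110 were past 2-fold higher. The exception was Mertk, a receptor for dying cells, at 17.5 CPM in α-amyrin and 15.9 CPM in β-amyrin. Cd163, a haemoglobin scavenger receptor, did not pass the low-count filter. Summed over the list, CPM was 508 in P1 α-amyrin, 79.2 in P1 β-amyrin and 569 in P1 vehicle. In bulk RNA, fewer cells of a type and less RNA per cell cannot be told apart.

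Cx3cr1, the fractalkine receptor, had the highest ratio. It had 15.3 CPM in the α-amyrin library, 0.322 CPM in the β-amyrin library and 18 CPM in the vehicle library at P1, from 451, 8 and 469 counts. Its ratio was 5.26, with a 95% counting interval of 4.58 to 6.79, an interval that like every other given for a pair covers counting error only. C1qb, a chain of the complement initiator C1q, had 29.2 CPM in α-amyrin, 1.65 CPM in β-amyrin and 29.0 CPM in vehicle, a ratio of 4.08 (3.69 to 4.63). The other C1q chains, C1qc and C1qa, were at 4.09 and 3.62. In each of these 4 genes the β-amyrin library stood apart; the log2 ratio of α-amyrin over vehicle was -0.23 in Cx3cr1, 0.01 in C1qb, 0.12 in C1qc and -0.58 in C1qa.

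The β-amyrin library was also the lowest of the P1 libraries for surface receptors. Adgre1, which encodes the F4/80 antigen, had 20.9 CPM in α-amyrin, 1.45 CPM in β-amyrin and 19.6 CPM in vehicle, a ratio of 3.78 (3.37 to 4.38). Csf1r, the receptor for CSF1, had 51.2, 9.93 and 51.9 CPM in the α-amyrin, β-amyrin and vehicle libraries, a ratio of 2.36. The leukocyte phosphatase gene Ptprc, which encodes CD45, had 9.34, 0.643 and 6.79 CPM in the same order of libraries and a ratio of 3.70. Among other members, Cybb, the catalytic subunit of the phagocyte NADPH oxidase, was at 3.82, the actin regulator gene Coro1a at 3.78 and Laptm5, a lysosomal membrane protein of blood cells, at 3.73. The Fc receptor genes Fcer1g, the shared signalling chain, and Fcgr3, a low-affinity receptor for IgG, were at 3.75 and 3.57. Cd14, a co-receptor for bacterial lipopolysaccharide, had 15.3 CPM in α-amyrin, 2.09 CPM in β-amyrin and 15.3 CPM in vehicle. Spi1, which encodes PU.1, had 8.09, 0.643 and 7.82 CPM, a ratio of 3.50.

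Lyz2, the macrophage lysozyme, was the most abundant member at P1. It had 85.6 CPM in α-amyrin, 17.6 CPM in β-amyrin and 136 CPM in vehicle, and its ratio of α-amyrin over β-amyrin was 2.28 (2.13 to 2.43). The α-amyrin library was below vehicle by a log2 ratio of -0.67. Mrc1, the mannose receptor, had a log2 ratio of -0.70 for α-amyrin over vehicle, with 9.11 CPM in α-amyrin, 1.29 CPM in β-amyrin and 14.9 CPM in vehicle. Over the 29 tested members the median ratio to vehicle was -0.02 for α-amyrin and -3.35 for β-amyrin; these medians share the vehicle library. Of the 29, 14 were above vehicle in α-amyrin and 1 in β-amyrin.

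Genes of phagocytes outside that list were also among the highest. Fcrls, an Fc receptor-like gene, had 12 CPM in α-amyrin, 0.523 CPM in β-amyrin and 16.2 CPM in vehicle, a ratio of 4.32. Hpgds, the haematopoietic prostaglandin D synthase, stood at 4.06, the scavenger receptor gene Msr1 at 3.81 and the GTPase-activating protein gene Arhgap30 at 3.81. Among 86 genes on neither the phagocyte nor the interferon lists, several known from blood cells were picked after their values were seen: C5ar1, the receptor for complement C5a, at 3.44, the exchange factor gene Vav1 at 3.52, the integrin chain gene Itgb2 at 3.07, the phosphatase gene Ptpn6 at 3.24 and the RNA sensor gene Tlr7 at 2.92.

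A list of 19 tested lipid-handling phagocyte genes had 18 members above 0 at P1 and a median of 0.62. Of its 14 members with at least 5 CPM in the pair, 4 were past 2-fold, beside the background of 1.07%. Cd36, which takes up fatty acids and oxidised lipoprotein, had 29.3 CPM in α-amyrin, 5.47 CPM in β-amyrin and 26.8 CPM in vehicle, a ratio of 2.40. Trem2, a lipid receptor of macrophages, was at 3.06. Lpl, the lipase that releases fatty acids from lipoproteins, had 96.2, 33.6 and 67.2 CPM in the α-amyrin, β-amyrin and vehicle libraries, a ratio of 1.51 (1.41 to 1.63). Apoe, the lipid-carrying apolipoprotein, fell just short at 0.99, with 43.6, 22 and 56.2 CPM. Spp1, the matrix protein osteopontin, was the member below 0, with 290 CPM in α-amyrin, 354 CPM in β-amyrin and 472 CPM in vehicle.

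**Figure D2:**
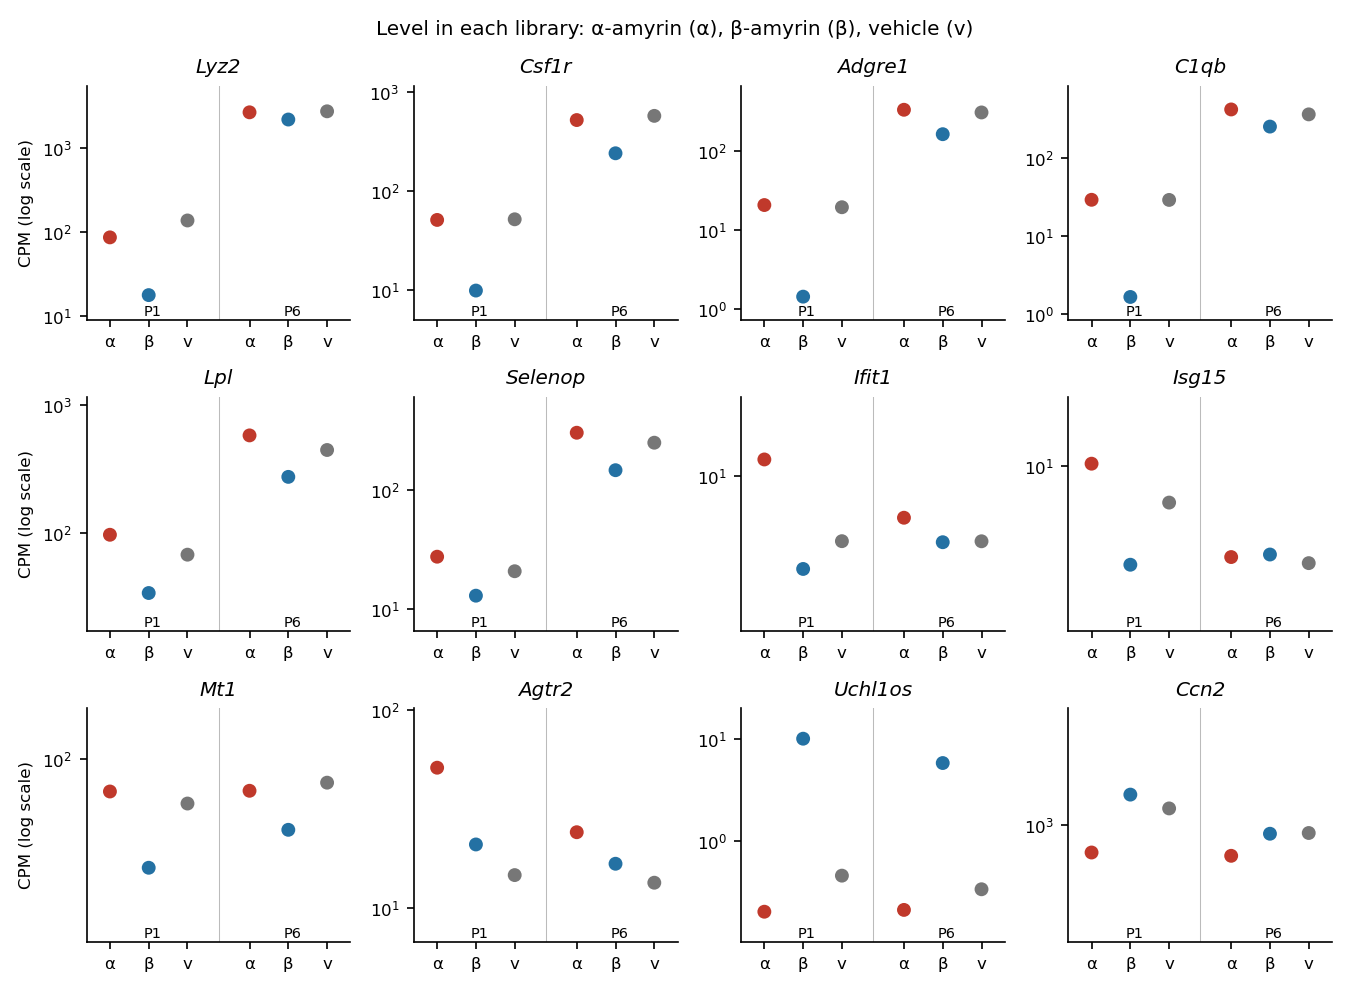
CPM on a log y axis in each of the 6 libraries for 12 genes, with α-amyrin in red, β-amyrin in blue and vehicle in grey, P1 on the left and P6 on the right of each panel; each point is 1 library and there are no error bars. Adgre1 at P1 reads 20.9, 1.45 and 19.6 CPM, and at P6 337, 165 and 312 CPM; Uchl1os is highest in β-amyrin at both passages.

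No other blood-cell type was detected beyond traces. Of 15 T, B and NK cell markers 1 passed the low-count filter, and the highest member in the P1 pair had 1.09 CPM, with Cd3e and Cd79a at 0 in both libraries. Of 17 mast cell and granulocyte markers 2 were tested and the highest had 1.36 CPM. Of 12 erythroid markers 2 were tested and the highest had 0.646 CPM, with every listed globin gene found in the table at 0 in both libraries. All 21 fibroblast markers were tested, with 11 above and 10 below 0 and a median of 0.03. Their summed CPM was 37733 in P1 α-amyrin, 42356 in P1 β-amyrin and 45550 in P1 vehicle.

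Interferon-stimulated genes were higher in the α-amyrin library at P1. All 53 tested members of the list had a ratio above 0, with a median of 1.19, and 12 of the 29 members with at least 5 CPM in the pair were past 2-fold, beside the background of 1.07%. Among the 21 members with at least 5 CPM in the P1 vehicle library, 4 were past 2-fold, against 110 of all 11439 genes with that vehicle level. Most members were low, and their summed CPM was 897 in α-amyrin, 593 in β-amyrin and 696 in vehicle. In all 12 genes past 2-fold the vehicle library lay between the isomers, with a median ratio to vehicle of 0.60 for α-amyrin and -0.77 for β-amyrin. Macrophage markers were also lowest in β-amyrin, at 508, 79.2 and 569 summed CPM in the α-amyrin, β-amyrin and vehicle libraries. Unlike the interferon sum, the macrophage sum in α-amyrin was not above vehicle. The part of macrophage markers in the result was not tested.

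Ifit1 had 12.1 CPM in α-amyrin, 3.58 CPM in β-amyrin and 4.87 CPM in vehicle, a ratio of 1.73 (1.41 to 2.11). Ifit3, of the same family, had 7.82, 1.73 and 2.61 CPM, a ratio of 2.13 (1.70 to 2.68). In both genes the α-amyrin library was the one that stood apart from vehicle, with α-amyrin over vehicle at 1.29 for Ifit1 and 1.55 for Ifit3. Isg15 had 10.2 CPM in α-amyrin, 3.58 CPM in β-amyrin and 6.83 CPM in vehicle, a ratio of 1.49, and here vehicle was in the middle. Ifi207, an interferon-induced gene of the pyrin and HIN domain family, had 5.23, 0.885 and 3.57 CPM and a ratio of 2.46.

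Components of the signalling complex itself differed less. Stat2 had 54.3 CPM in α-amyrin, 31.7 CPM in β-amyrin and 49.98 CPM in vehicle, a ratio of 0.78. Irf9 was at 0.78. The membrane protein gene Ifitm3, the most abundant member, had 273, 212 and 199 CPM in the α-amyrin, β-amyrin and vehicle libraries, a ratio of 0.36. Of 18 tested MHC class I genes, which present peptides to T cells, 16 were above 0 with a median of 0.38, and none of the 13 with at least 5 CPM in the pair was past 2-fold; H2-K1 was at 0.51 and H2-D1 at 0.61, and closely similar members of this family can share reads.

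Some genes were high in the α-amyrin library with β-amyrin nearer to vehicle. Agtr2, the angiotensin II type 2 receptor, had 51.0 CPM in α-amyrin, 20.9 CPM in β-amyrin and 14.7 CPM in vehicle, a ratio of 1.28 (1.14 to 1.43). Penk, the precursor of enkephalin peptides, had 27.6, 10.6 and 8.63 CPM, a ratio of 1.38. Both are on a list of 10 receptor signalling and ion channel genes that was drawn up for α-amyrin, so membership is not separate evidence. The list had 5 members above 0 and 5 below, with a median of 0.14. Its member Gjb2 was at -0.81. Ly6a, which encodes the surface protein Sca-1, had 82.3 CPM in α-amyrin, 37.7 CPM in β-amyrin and 36.7 CPM in vehicle, a ratio of 1.12; like Gda and Sned1 below it was picked after its values were seen. Gda, the guanine deaminase, was at 1.34 and Sned1, a matrix protein gene, at 1.03, and their log2 ratios of β-amyrin over vehicle were 0.08 and 0.04. The small proteoglycan gene Lum had 42.2, 22.6 and 21.2 CPM and a ratio of 0.90, under 2-fold. The predicted gene Gm9780 had the second highest ratio of all, 4.61, from 432 counts in α-amyrin, 13 in β-amyrin and 9 in vehicle, but at P6 it had 2.92 CPM in α-amyrin and 4.62 CPM in β-amyrin.

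Metallothioneins, small proteins that bind zinc and copper, were instead low in the β-amyrin library. Mt1 had 73.9 CPM in α-amyrin, 36.4 CPM in β-amyrin and 66.1 CPM in vehicle, a ratio of 1.02, and Mt2 had 38.7, 17.5 and 35.9 CPM, a ratio of 1.14. Mt2 overlaps a gene on the other strand, Gm45774, over 749 bases, and the sources used here do not say whether counting used strand. Gm45774 was itself among the 124 genes, with 1145 counts in α-amyrin and 424 in β-amyrin at P1, beside 1138 and 436 for Mt2. Both entries may hold the same reads, which was not tested. The other 3 tested members of the metallothionein and zinc list, the zinc-responsive factor gene Mtf1 and the zinc carrier genes Slc39a10 and Slc30a1, were at 0.13, 0.04 and 0.00. In all, the vehicle library was nearer to α-amyrin in 106 of the 124 genes and nearer to β-amyrin in 18. It lay between the isomers in 77, above both in 39 and below both in 8.

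**Figure D3:**
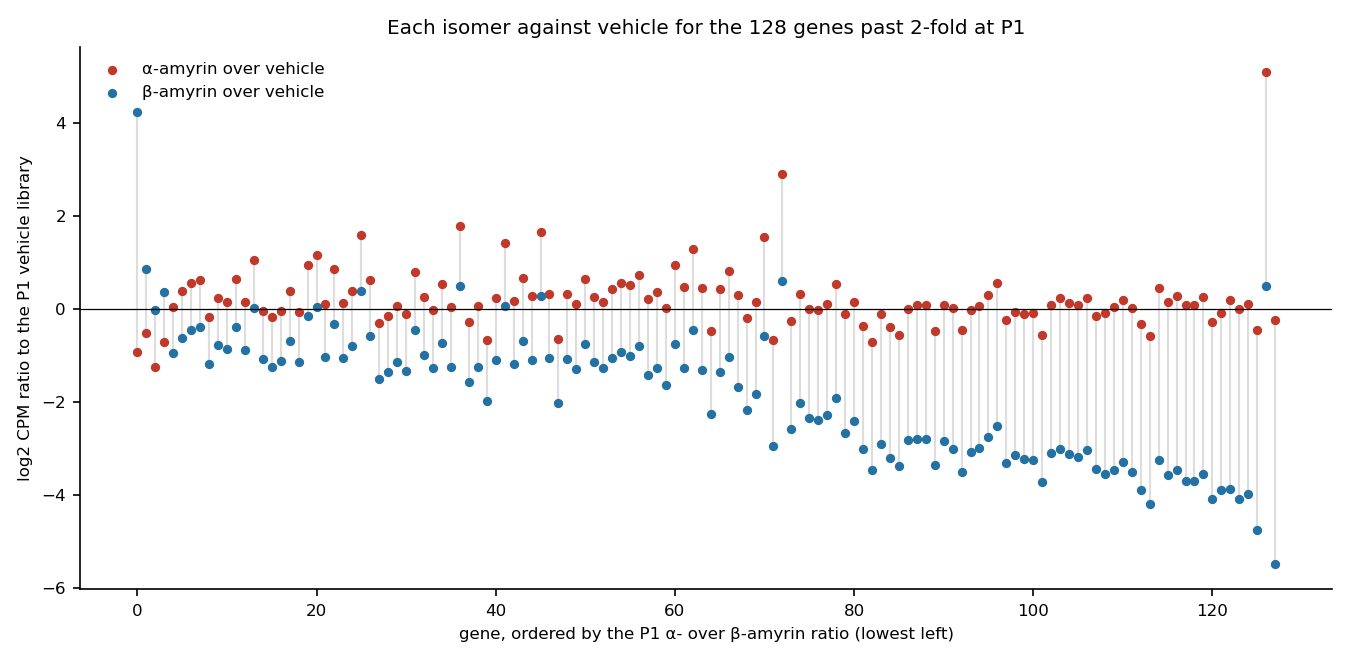
The 128 genes past 2-fold at P1, ordered from the lowest to the highest ratio of α-amyrin over β-amyrin along x, with the log2 ratio of α-amyrin over vehicle (red) and of β-amyrin over vehicle (blue) on the y axis, joined by a line; both ratios share the vehicle library. For the 124 genes higher in α-amyrin the red points have a median of 0.13 and the blue points a median of -1.60.

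Only 4 genes were past 2-fold in the other direction. Uchl1os, an antisense transcript at the Uchl1 locus on chromosome 5, had 0.204 CPM in the α-amyrin library, 10.1 CPM in the β-amyrin library and 0.460 CPM in the vehicle library, from 6, 252 and 12 counts. Its ratio was -5.16, with a counting interval of -7.09 to -4.49, and β-amyrin was the library that stood apart. It overlaps Uchl1, a ubiquitin hydrolase gene on the other strand, over 408 bases, and Uchl1 itself had 49.8 CPM in α-amyrin, 48.8 CPM in β-amyrin and 50.7 CPM in vehicle. On the scale of the deposited FPKM, as log2(FPKM + 1), the ratio of Uchl1os was -0.40 and not past 2-fold. Cdh10, a cadherin gene, had 10.2, 24 and 24.1 CPM in the α-amyrin, β-amyrin and vehicle libraries, a ratio of -1.23, and here α-amyrin stood apart. Eif3j2, one of a pair of near-identical translation factor genes, was at -1.38 and the processed pseudogene Rps13-ps2 at -1.08; both can share reads with their copies and are uncertain.

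Below 2-fold, several groups leaned towards lower levels in the α-amyrin library. Of 37 tested integrated stress response genes, which are switched on by ATF4 when amino acids run short or translation is halted, 34 were below 0 and 3 above, with a median of -0.28. Slc7a11, the cystine transporter, had 11.8 CPM in α-amyrin, 22.3 CPM in β-amyrin and 21.7 CPM in vehicle, a ratio of -0.92. Asns, asparagine synthetase, had 101, 139 and 152 CPM, a ratio of -0.46, and the amino acid transporter genes Slc7a3 and Slc7a5 were at -0.68 and -0.47. Atf4 itself was at -0.16, and Ddit3, which encodes the factor CHOP, at 0.18. The list's median ratio to vehicle was -0.30 for α-amyrin and -0.07 for β-amyrin.

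Of 36 tested contractile and TGF-beta-responsive genes, 32 were below 0 and 4 above, with a median of -0.26. Ccn2, a matrix-associated growth factor gene, had 800 CPM in α-amyrin, 1272 CPM in β-amyrin and 1139 CPM in vehicle, a ratio of -0.67, and Ankrd1, a target of the YAP coactivator, was at -0.76. Acta2, smooth muscle actin, was at -0.30, with 2956 CPM in α-amyrin, 3636 CPM in β-amyrin and 3568 CPM in vehicle. Of 23 collagen genes 18 were below 0, with a median of -0.23. Among them Col7a1, the anchoring-fibril collagen, was at -0.84, Col5a3 at -0.67 and Col1a1 at -0.26, the last with 11859 CPM in α-amyrin, 14229 CPM in β-amyrin and 15011 CPM in vehicle.

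Of 31 immediate early genes, which respond within minutes to growth factors, 24 were below 0, with a median of -0.18. Egr2, a zinc finger factor of this class, had 5.03 CPM in α-amyrin, 10.1 CPM in β-amyrin and 10.5 CPM in vehicle, a ratio of -0.99. Dusp5, a phosphatase that acts on ERK, was at -0.63 and Nr4a2, an orphan nuclear receptor, at -0.50. None of the integrated stress response, contractile, collagen and immediate early lists had a member past 2-fold in either direction. Outside these lists, Ptgs2, the inducible cyclooxygenase, had 121 CPM in α-amyrin, 242 CPM in β-amyrin and 191 CPM in vehicle, a ratio of -0.996, just short of 2-fold. Hbegf, a ligand of the EGF receptor on the list of secreted senescence-associated factors, was at -0.98.

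Sterol and lysosomal genes leaned the other way. All 20 cholesterol synthesis genes were above 0, with a median of 0.18 and a range of 0.01 to 0.45, and 9 of 11 genes of SREBP2 regulation and LDL uptake were above 0 (median 0.13). Tm7sf2, a sterol reductase, was the highest, with 17.7 CPM in α-amyrin, 12.9 CPM in β-amyrin and 20.4 CPM in vehicle. Hmgcs1, the synthase ahead of HMG-CoA reductase, had 536, 480 and 593 CPM, a ratio of 0.16. Both isomers were below vehicle for this list, with medians of -0.19 for α-amyrin and -0.36 for β-amyrin. Abca1, the cholesterol exporter, had 30.2 CPM in α-amyrin, 30.4 CPM in β-amyrin and 57.5 CPM in vehicle, a ratio of -0.01 with a counting interval of -0.15 to 0.13, and both amyrin libraries lay below vehicle. Of 57 lysosomal genes 52 were above 0, with a median of 0.21; Lgmn, a lysosomal protease, was the highest at 0.82, with 111, 62.8 and 101 CPM. Macrophages are rich in lysosomal transcripts, and the macrophage sums given above stand beside this list too; their part in it was not tested.

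Growth and senescence genes lay close to 0. The median was 0.09 for 59 genes of G1/S and DNA replication, 0.02 for 70 genes of G2/M and mitosis, -0.05 for 30 p53 targets and -0.03 for 18 core senescence genes. Cdkn2a, which encodes the senescence regulators p16 and ARF, had 17.2 CPM in α-amyrin, 17.4 CPM in β-amyrin and 19.4 CPM in vehicle, a ratio of -0.02 with a counting interval of -0.20 to 0.17. Cdkn1a, which encodes p21, had 566, 558 and 533 CPM, a ratio of 0.02, and the proliferation marker gene Mki67 had 170, 165 and 170 CPM, a ratio of 0.04. Heat shock genes and chaperones of the endoplasmic reticulum each had a median of -0.08. The imprinted RNA H19, abundant in embryonic cells, had 8508 CPM in α-amyrin, 6750 CPM in β-amyrin and 5768 CPM in vehicle, a ratio of 0.33, and Dlk1, an imprinted inhibitor of adipocyte formation, had 302, 206 and 177 CPM, a ratio of 0.55. Il6 stood near 1 CPM in the P1 pair, where a ratio of 0.42 carried a counting interval of -0.41 to 1.37.

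**Figure D4:**
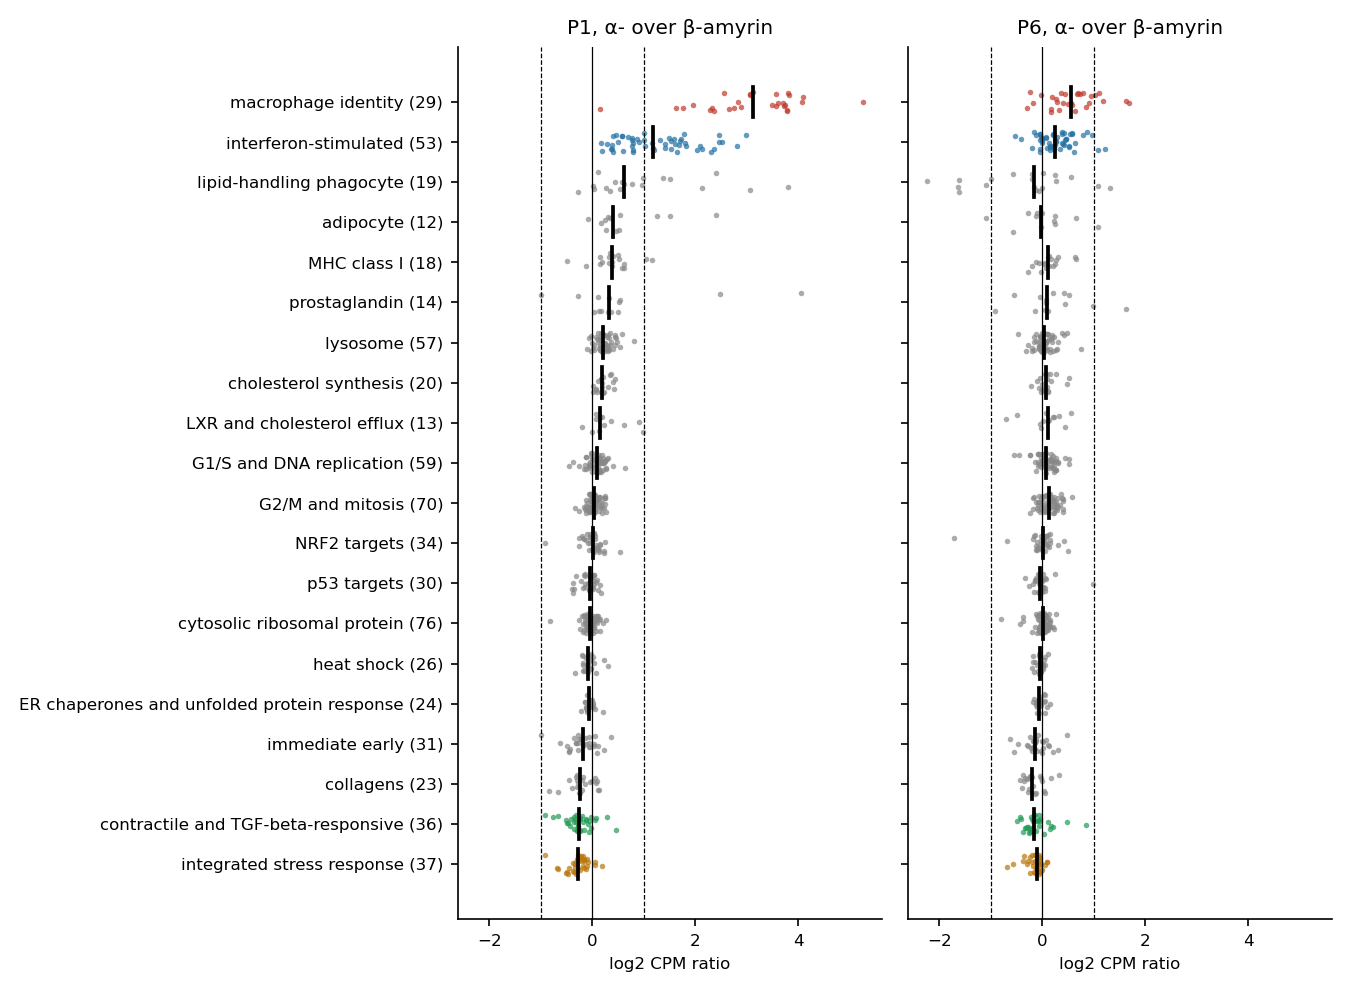
The log2 ratio of α-amyrin over β-amyrin for the tested members of 20 gene lists at P1 (left) and P6 (right); each point is 1 gene, vertical bars are medians, dashed lines mark 2-fold, and numbers of members are in brackets. The macrophage list has a median of 3.12 at P1 and 0.57 at P6, the interferon list 1.19 and 0.25, and the integrated stress response list -0.28 and -0.10.

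The P6 pair, which shares no library with the P1 pair, gave the same comparison in cells labelled senescent. There 65 genes were at least 2-fold higher in α-amyrin (0.547% of 11889) and 15 lower (0.126%). Of the 124 genes higher in α-amyrin at P1, 108 had the same direction at P6 and 9 were again past 2-fold, against 6701 and 19 of the 11615 genes with at least 5 CPM in the P1 pair. Their median ratio was 1.82 at P1 and 0.50 at P6. They were chosen by their P1 ratio, which by itself favours a smaller ratio at P6, and the size of that effect was not tested. The macrophage list had 25 of 29 members above 0 at P6, with a median of 0.57, at a much higher level: 7353 summed CPM in P6 α-amyrin, 5249 in P6 β-amyrin and 7118 in P6 vehicle. Cx3cr1 at P6 had 250 CPM in α-amyrin, 81.0 CPM in β-amyrin and 199 CPM in vehicle, a ratio of 1.63. Lyz2 at P6 had 2630, 2159 and 2704 CPM, a ratio of 0.28. The median of the macrophage list at P1 minus that at P6 was 2.55, a difference for which no test exists with 1 library per condition.

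Of the interferon list 39 of 53 members were above 0 at P6, with a median of 0.25. Ifit1 had 6.32 CPM in P6 α-amyrin, 4.81 CPM in P6 β-amyrin and 4.87 CPM in P6 vehicle, and Isg15 had 3.88, 3.98 and 3.64 CPM. Some lists that leaned below 0 at P1 did so at P6. Of 37 integrated stress response genes 34 had the same sign at both passages (median -0.10 at P6), as did 33 of 36 contractile genes (-0.17) and 18 of 23 collagen genes (-0.20). Over all genes tested, 9649 of 16962 had the same sign at both passages. Others did not. Of 76 cytosolic ribosomal protein genes 54 were below 0 at P1 (median -0.05) and 46 above 0 at P6 (0.02). Of 12 mitochondrially encoded genes, 8 were below 0 at P1 (median -0.08) and 11 above 0 at P6 (0.19). These P1 counts depended on the scale: 42 ribosomal and 7 mitochondrial genes were below 0 with library-size scaling, and 38 and 6 with FPKM. Lipid-handling phagocyte genes did not keep their direction, with 7 of 19 above 0 and a median of -0.15 at P6. Cholesterol synthesis genes had 13 of 20 above 0 at P6 and a median of 0.08. H19 was at 0.32 and Dlk1 at 0.46 at P6, near their P1 ratios, and Uchl1os had 0.212 CPM in α-amyrin, 5.85 CPM in β-amyrin and 0.338 CPM in vehicle, a ratio of -4.34.

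Genes higher in α-amyrin at P1 were also genes that were higher at P6 without any compound. Of the 124, 102 were at least 2-fold higher in P6 vehicle than in P1 vehicle (82.3%), against 544 of the 11615 genes (4.68%); by the rule used for pairs, 7.82% of 12149 genes were at least 2-fold higher in P6 vehicle. The labels do not say whether P6 cells came from the same isolate as P1 cells. The remaining 22 genes included Ifit1, Agtr2, Mt1 and Sumo2, a ubiquitin-like modifier. They also included pseudogenes such as Rpl7a-ps5, which can share reads with their copies. The 22 genes had a median of 0.61 for α-amyrin over vehicle and -0.77 for β-amyrin over vehicle at P1. Across the 10669 genes that reached 5 CPM in all 6 libraries, the P1 ratio had a Spearman rho of 0.23 with the P6 ratio and 0.27 with the P6 over P1 vehicle ratio (Pearson r 0.26 and 0.32). These are descriptions across genes, which are not independent.

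**Figure D5:**
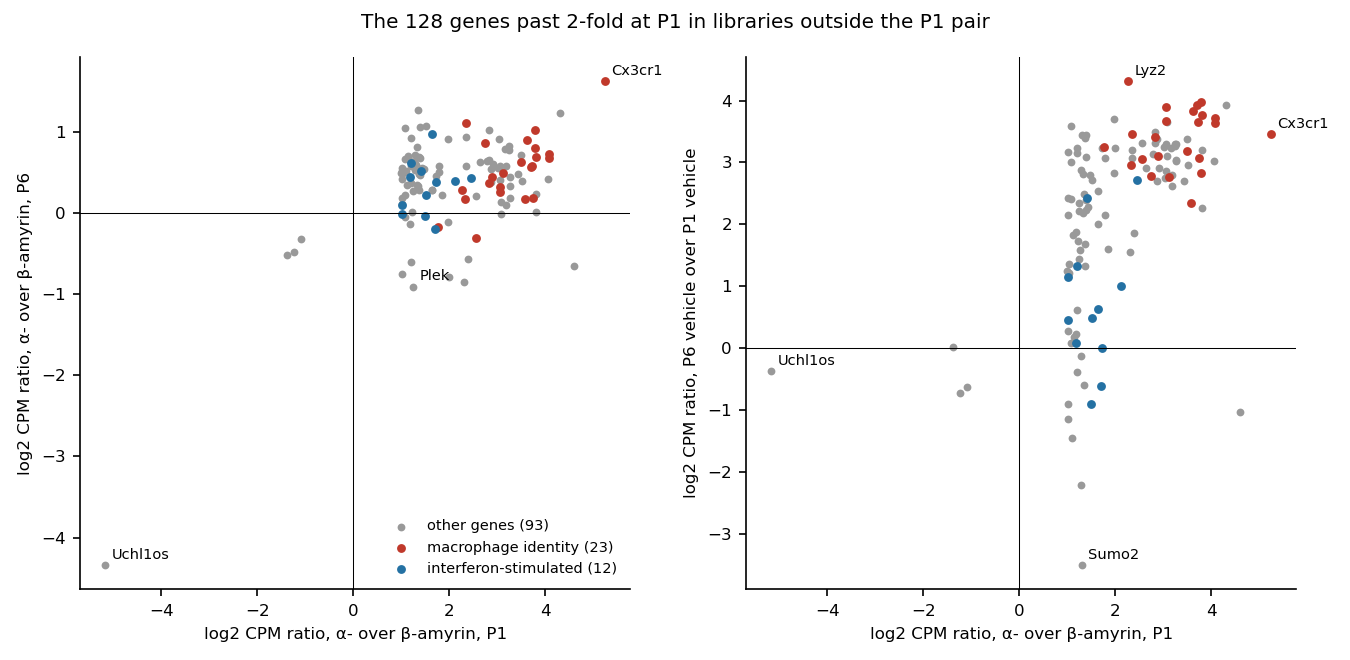
The 128 genes past 2-fold at P1, with the P1 log2 ratio of α-amyrin over β-amyrin on both x axes, the P6 ratio on the left y axis and the log2 ratio of P6 vehicle over P1 vehicle on the right y axis; macrophage identity genes (23) are red, interferon-stimulated genes (12) blue and the other 93 grey. Of the 124 points right of 0, 108 lie above 0 on the left, and on the right the red points lie above 2 while blue points lie on both sides of 0.

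The one test of the isomers that the study allows averages the 2 passages. The quasi-likelihood test of edgeR was fitted to all 6 libraries with treatment and passage as additive terms, which leaves 2 residual degrees of freedom, so a difference between isomers that itself differs between passages counts as error. At a Benjamini-Hochberg adjusted p below 0.05, 8 genes were higher in α-amyrin (0.0472% of 16962) and 2 lower (0.0118%), and 1563 genes had an unadjusted p below 0.05. All 10 had the same direction at P1 and at P6, which the fit favours because it uses both pairs and counts a difference between passages as error. Without the P1 α-amyrin library no gene was called, with 853 at an unadjusted p below 0.05. Without the P1 β-amyrin library 146 were called higher and 30 lower, and without the P6 β-amyrin library 327 and 50.

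Uchl1os was lower in α-amyrin by a log2 difference of -5.28 ± 0.30 (SE, 6 libraries; edgeR adjusted p = 0.0059). Selenop, the selenium transport protein, was higher by 1.07 ± 0.06 (edgeR adjusted p = 0.0059), with 27.7 CPM in α-amyrin, 13.0 CPM in β-amyrin and 20.9 CPM in vehicle at P1 and 306, 148 and 252 CPM at P6. Ccdc152, which overlaps Selenop on the other strand over 439 bases, was higher by 1.19 ± 0.12 (edgeR adjusted p = 0.043), and the reads of the overlap could belong to either. Lpl was higher by 1.28 ± 0.10 (edgeR adjusted p = 0.020), with 578, 274 and 444 CPM in α-amyrin, β-amyrin and vehicle at P6. The laminin receptor chain gene Itga6 was higher by 0.76 ± 0.06 and the endocytic adaptor gene Dab2 by 0.65 ± 0.05 (both edgeR adjusted p = 0.020). Ucp2, a mitochondrial carrier, was higher by 0.97 ± 0.08 (edgeR adjusted p = 0.020).

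Cd72, a lectin-like receptor of B cells and macrophages, and Unc93b1, which escorts nucleic acid sensors to endosomes, were higher by 0.68 ± 0.07 each (edgeR adjusted p = 0.043 and 0.044). The ribosomal protein gene Rpl7a was lower by a log2 difference of -0.81 ± 0.07 (edgeR adjusted p = 0.020), with 215 CPM in α-amyrin, 381 CPM in β-amyrin and 306 CPM in vehicle at P1. It has many processed copies, and Rpl7a-ps5 had 32.6, 14.1 and 10.7 CPM at P1, so how reads were split between them is uncertain. No member of the macrophage identity or interferon-stimulated lists was called: Csf1r had a difference of 1.59 with a 95% interval of 0.97 to 2.20 (edgeR adjusted p = 0.16), and Ifit1 1.12 with 0.41 to 1.83 (edgeR adjusted p = 0.34). The intervals were -0.17 to 0.17 for Cdkn2a, -0.10 to 0.13 for Cdkn1a and -0.02 to 0.35 for Mki67, on average over the passages. They cover only the spread among these 6 libraries and, without replicate cultures, do not bound the effect of the isomers.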

How the data were processed

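Poly(A) RNA of 6 MEF libraries was measured with a directional kit, per the labels' protocols. The submitters' processing notes name FastQC 0.11.7, Trimmomatic 0.38 and HISAT2 2.1.0, then SAMtools 1.9, featureCounts 1.6.3 and the build mm10, without settings or strand. The authors deposited raw counts per gene, used for every main value, and FPKM values, which entered only as alternatives because no source used here describes how they were made.

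Counts were scaled by TMM (edgeR 4.0.16, R 4.3.3) to CPM. The 16962 genes passing filterByExpr, with passage as group, were tested. Ratios of single pairs used a prior count of 2 and 95% Clopper-Pearson counting intervals, which cover counting error only. The additive fit used estimateDisp, glmQLFit and glmQLFTest; the common biological coefficient of variation was 7.72% and the prior degrees of freedom 4.83. Its p-values measure only the spread among these libraries, which may be technical. The analysis was tested on simulated data. Alternatives used DESeq2 1.42.0, limma 3.58.1, other scalings, prior counts, minimums, folds, FPKM and left-out libraries.

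The 46 gene lists and the comparison were chosen with earlier results of these data known. Named were the 15 highest and lowest past 2-fold without predicted models, up to 3 members per list with the largest ratio and CPM at least 5, up to 5 called genes per direction of the additive fit, and 15 genes given in every comparison; others illustrate a list or are said to be picked after their values were seen. Some genes named by these rules are not reported here. Promoters came from RefSeq (GRCm38.p6).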

Additional observations from a re-analysis of the deposited data

Results flagged for a closer look

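These 6 genes were at least 1.5-fold apart between the isomers at both passages but in opposite directions, 1 library each, and the difference between passages was not tested. Gpnmb, a glycoprotein of phagocytes, had 120 CPM in α-amyrin and 62.1 CPM in β-amyrin at P1 (log2 ratio 0.95), and 218 CPM in α-amyrin and 665 CPM in β-amyrin at P6 (log2 ratio -1.61). Lgals3, the lectin galectin-3, had 86.9 CPM in α-amyrin and 50.7 CPM in β-amyrin at P1 (0.78), and 207 CPM in α-amyrin and 414 CPM in β-amyrin at P6 (-0.998). Plek, a substrate of protein kinase C in blood cells, had 15.3 CPM in α-amyrin and 6.35 CPM in β-amyrin at P1 (1.26), and 92.9 CPM in α-amyrin and 174 CPM in β-amyrin at P6 (-0.91). Lilr4b, an inhibitory leukocyte receptor, had 9.04 CPM in α-amyrin and 2.21 CPM in β-amyrin at P1 (1.99), and 83.6 CPM in α-amyrin and 144 CPM in β-amyrin at P6 (-0.79). For all 4 the P6 vehicle library lay below both amyrin libraries, at 180 CPM for Gpnmb, 187 for Lgals3, 78.5 for Plek and 76.8 for Lilr4b.

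The pseudogene Rpl7a-ps5 had ratios of 1.20 at P1 and -0.60 at P6. Gapdh, a glycolytic gene with many processed copies, had ratios of -0.81 at P1 and 1.72 at P6, with 12.1 CPM in α-amyrin and 21.3 CPM in β-amyrin at P1. Both can share reads with their copies and are uncertain.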

How the results depend on the processing

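No paired analysis was possible because the labels carry no replicate numbers to pair by; the additive fit compares the isomers within passages. The P1 counts (124 higher, 4 lower) moved with the minimum and the fold: 590 higher and 109 lower with no CPM minimum, 31 and 1 with CPM at least 5 in both libraries, and 254 and 72 at 1.5-fold. FPKM gave 103 higher, 73 of them shared, and 10 lower, 1 of them shared, and at P6 35 higher and 35 lower. A minimum on the P1 vehicle library, chosen after seeing the data, gave 110 higher (106 shared) and 4 lower (3 shared). Library-size scaling shifted the median of all genes to 0.05. It changed contractile genes to 30 below 0, ribosomal protein genes to 42 and mitochondrially encoded genes to 7. All members of the macrophage, interferon and cholesterol synthesis lists were above 0 under every scaling, prior count and FPKM. With a prior count of 0.5 the macrophage median at P1 was 3.23, its P1 minus P6 difference 2.66 and the mesothelial median at P6 -0.44; with 5 they included -0.14 for mesothelial at P6 and 1.09 for interferon at P1. With FPKM the P1 medians were 2.02 for macrophage, 0.41 for lipid-handling phagocyte, 0.086 for muscle, 0.076 for cartilage and bone, 0.52 for interferon, 0.043 for mitochondrially encoded and 0.14 for prostaglandin genes; the P6 medians were 0.048 for neural, -0.000525 for mesothelial, -0.088 for cartilage and bone and 0.14 for interferon genes, and the macrophage P1 minus P6 difference was 1.51. The additive fit (8 higher, 2 lower) gave 351 and 133 with no filter, 81 and 38 by DESeq2 with all 10 genes kept, and 0 and 0 by limma on log2(FPKM + 1), with 1716 at an unadjusted p below 0.05; leaving out each library gave 0 to 327 higher and 0 to 50 lower, and without P6 α-amyrin 3 of the 10 stayed called. The cause of these shifts was not tested. Of the 128 genes 62 had 5 to 10 CPM, where counting intervals are widest.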

Other observations

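Beside the tests above, 3 of 12 tested mitochondrially encoded genes stood apart at P1. Of the 11 with at least 5 CPM in the pair, 2 were past 2-fold, beside the background of 1.07%. The ATP synthase subunit gene mt-Atp6 had 31.2 CPM in α-amyrin, 13.5 CPM in β-amyrin and 38.4 CPM in vehicle, and the cytochrome oxidase subunit genes mt-Co3 and mt-Co2 had 27.9 and 55.1 CPM in α-amyrin against 13.1 and 29.1 CPM in β-amyrin. The abundant mt-Co1 had 5533 CPM in α-amyrin and 5858 CPM in β-amyrin, and the median of the list was -0.08. The 3 genes lay far below mt-Co1, and whether their reads were shared with similar sequences was not tested, so their differences are uncertain. The mitochondrial share of all counts was 1.62% in P1 α-amyrin and 1.66% in P1 β-amyrin.

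Mesothelial markers, from the lining of body cavities, were present at P1 with 308 summed CPM in α-amyrin, 266 in β-amyrin and 248 in vehicle, and 10 of the 11 were higher in α-amyrin than in β-amyrin (median 0.18). At P6 the sums were 14.7, 13.8 and 12.8 CPM in the α-amyrin, β-amyrin and vehicle libraries.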
